A study of Mus musculus with 6 samples.

Results

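The genes described are 10 transcriptional readouts and inhibitors of fibroblast growth factor (FGF) and ERK signaling in mouse incisor mesenchyme. They were chosen by symbol from the 23718 genes of a normalized RNA sequencing table: the Sprouty genes Spry1, Spry2 and Spry4, the Sprouty-related genes Spred1 and Spred2, the phosphatases Dusp4 and Dusp6, and the ETS factors Etv1, Etv4 and Etv5. All 10 were in the table and all 10 passed the filter on low values, a mean of at least 1 over the 6 libraries. The study compared mesenchymal stem cells (MSCs) with transit amplifying cells (TACs), the fast-dividing cells that MSCs give rise to, in a tooth that grows throughout life. The 3 MSC libraries came from Gli1-CreER;tdT mice and the 3 TAC libraries from Axin2-CreER;tdT mice, as the labels spell them. The methods give the drivers as CreERT2 alleles and the reporter as a tdTomato allele at Rosa26. All mice were 1 month old and labelled C57BL/6, although the methods describe a mixed background. In both groups tamoxifen had activated the Cre driver 1 day before collection, which switches on a red reporter, and labelled regions were then cut from frozen sections by laser capture microdissection. A captured region holds the cells where the driver gene was active together with whatever lies in the same piece of section, and the methods give 3 mice per group.

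FGFs bind receptor tyrosine kinases that signal through Ras, Raf and MEK to the kinase ERK. Active ERK releases and activates transcription factors, including the ETV group of ETS proteins, and induces its own inhibitors, so the RNA of these genes is widely used as a readout of the pathway. In the mouse incisor, FGFs exchanged between epithelium and mesenchyme are known to maintain the epithelial stem cells and the dividing mesenchyme, and Sprouty genes are known to restrain this exchange.

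The upstream sequences of 4 members whose levels were higher in TACs are shown because ERK acts on such genes partly through 2 kinds of factor, the activating ETS proteins and the repressor capicua, which ERK relieves. Each run is the 250 bases before the RefSeq start on build GRCm38.p6, 5′ to 3′ on the strand of the gene. Capitals mark an exact match to a capicua octamer. The runs lie at chr10:99262981-99263230 (plus strand) for Dusp6, chr14:105896820-105897069 (minus strand) for Spry2, chr3:37639697-37639946 (plus strand) for Spry1 and chr16:22439571-22439820 (minus strand) for Etv5.
Dusp6: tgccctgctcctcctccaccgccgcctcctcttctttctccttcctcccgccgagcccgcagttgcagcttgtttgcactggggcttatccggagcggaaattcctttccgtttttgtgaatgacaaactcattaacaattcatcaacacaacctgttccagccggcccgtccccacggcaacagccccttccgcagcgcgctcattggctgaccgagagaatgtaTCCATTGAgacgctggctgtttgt
Spry2: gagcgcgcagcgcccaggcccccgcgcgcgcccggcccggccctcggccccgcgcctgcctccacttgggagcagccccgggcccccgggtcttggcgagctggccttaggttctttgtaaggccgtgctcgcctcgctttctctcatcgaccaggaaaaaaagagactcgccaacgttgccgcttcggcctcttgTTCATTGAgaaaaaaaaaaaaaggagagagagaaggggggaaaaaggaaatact
Spry1: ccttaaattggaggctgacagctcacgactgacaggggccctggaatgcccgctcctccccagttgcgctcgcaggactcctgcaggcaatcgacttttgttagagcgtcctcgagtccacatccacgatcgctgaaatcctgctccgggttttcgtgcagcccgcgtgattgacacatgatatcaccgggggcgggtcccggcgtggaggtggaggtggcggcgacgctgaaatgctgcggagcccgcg
Etv5: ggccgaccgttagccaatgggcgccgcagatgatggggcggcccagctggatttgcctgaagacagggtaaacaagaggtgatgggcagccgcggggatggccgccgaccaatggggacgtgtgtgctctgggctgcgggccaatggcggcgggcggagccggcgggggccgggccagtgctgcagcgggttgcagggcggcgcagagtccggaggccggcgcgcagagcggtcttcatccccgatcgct
Windows of 250 bases before to 50 after the start were found for 7 member genes, 9 windows in all, with none for Spry4, Dusp4 and Etv4. The ETS site CCGGAAGT was searched on both strands and lay in 0 of the 9 windows and in 3.89% of 32851 windows of the same length. The capicua octamers TGAATGAA, TGAATGGA and TCAATGAA lay in 1 member window, that of Spry2, and in 3.18% of all windows. The spelling TCAATGGA was added after the windows had been seen, and with it the count was 2 member windows and 3.84% of all. In Dusp6 this octamer, read as TCCATTGA on the gene's strand, began 24 bases before the start and again at base 2 after it, and in Spry2 TTCATTGA began 54 bases before the start. The short ETS core CGGAA, also added later and contained in the longer ETS site, lay in windows of Dusp6, Spred1, Spred2 and Spry2 and in 29.9% of all windows. These are matches of letters, and binding was not measured.

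Replicate 3 of either group stood apart from replicates 1 and 2. In replicates 1 and 2 there were 20203159 to 25567244 estimated reads, 6.38% to 7.88% of genes without a read and 8.28% to 9.07% of reads from mitochondrial ribosomal RNA. MSC replicate 3 and TAC replicate 3 held 59793645 and 108156380 reads, 42.6% and 27.8% of genes without a read, and 0.236% and 0.112% mitochondrial ribosomal RNA. The driver gene Gli1 was 256, 245 and 422 in MSCs and 153, 141 and 396 in TACs, higher in MSCs for each replicate number although the groups overlap. The driver gene Axin2 was 58.3, 47.99 and 12.01 in MSCs and 56.8, 63.9 and 34.1 in TACs, and was not higher in TACs for replicate 1. General mesenchyme markers such as Vim, Pdgfra, Prrx1 and Msx1 were present in every library, but not all at the same level. Vim, Pdgfrb and Prrx1 were lower in every TAC library than in any MSC library, a pattern of 12.2% of all genes. Msx1 was higher in every TAC library, a pattern of 12.3%. Pdgfra, Col1a1 and Col1a2 overlapped between the groups. The values printed are read numbers scaled to a common level across libraries, as deposited, and gene length is not divided out. Member differences are therefore also given within replicates 1 and 2 and within replicate 3, where each group has 1 library and no test.

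Of the 10 members, 6 were higher in every TAC library than in any MSC library: Etv4, Etv5, Spry1, Spry2, Spry4 and Dusp6. The same pattern was seen in 12.3% of the 15391 genes tested. No member was lower in every TAC library, a pattern seen in 12.2% of all genes. No member passed the threshold of 0.05 on the adjusted p (limma, Benjamini-Hochberg over all genes), against 0.422% of all genes in either direction, 0.0390% higher and 0.383% lower in TACs. With the replicate number as a block, again 0 members passed, where 0.604% of all genes passed higher in TACs. With the library set as a batch term in place of the block, 4 members passed, higher in TACs, against 5.22% of all genes. These were Spry4, Dusp6, Etv4 and Etv5, with limma adjusted p of 0.0196, 0.0312, 0.0162 and 0.0143. With replicates 1 and 2 averaged into 1 sample per group and no batch term, 0 members passed, where 10 of all genes passed. The limma adjusted p was then 0.372 for Etv4, 0.604 for Etv5 and 0.9998 for Spry4 and Dusp6. Without MSC replicate 3, Spry1, Spry4, Etv4 and Etv5 passed, with limma adjusted p of 0.0353, 0.0393, 0.0455 and 0.0389, against 0.591% of all genes higher in TACs. At an unadjusted p under 0.05, 5 members were higher in TACs (5.42% of all genes) and 0 were lower (6.43%). With limma voom on the estimated reads, 0 members passed the adjusted threshold. The median log2 fold change, TAC minus MSC on the log2(value + 1) scale, was 1.78 over the members and 0.03 over all genes. Within replicates 1 and 2 alone, 8 members passed the adjusted threshold, all higher in TACs, where 20.0% of all genes passed in that direction and 24.2% in the other. These are captured pieces of tissue, so more cells that use a gene and more RNA per cell cannot be told apart.

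**Figure D1:**
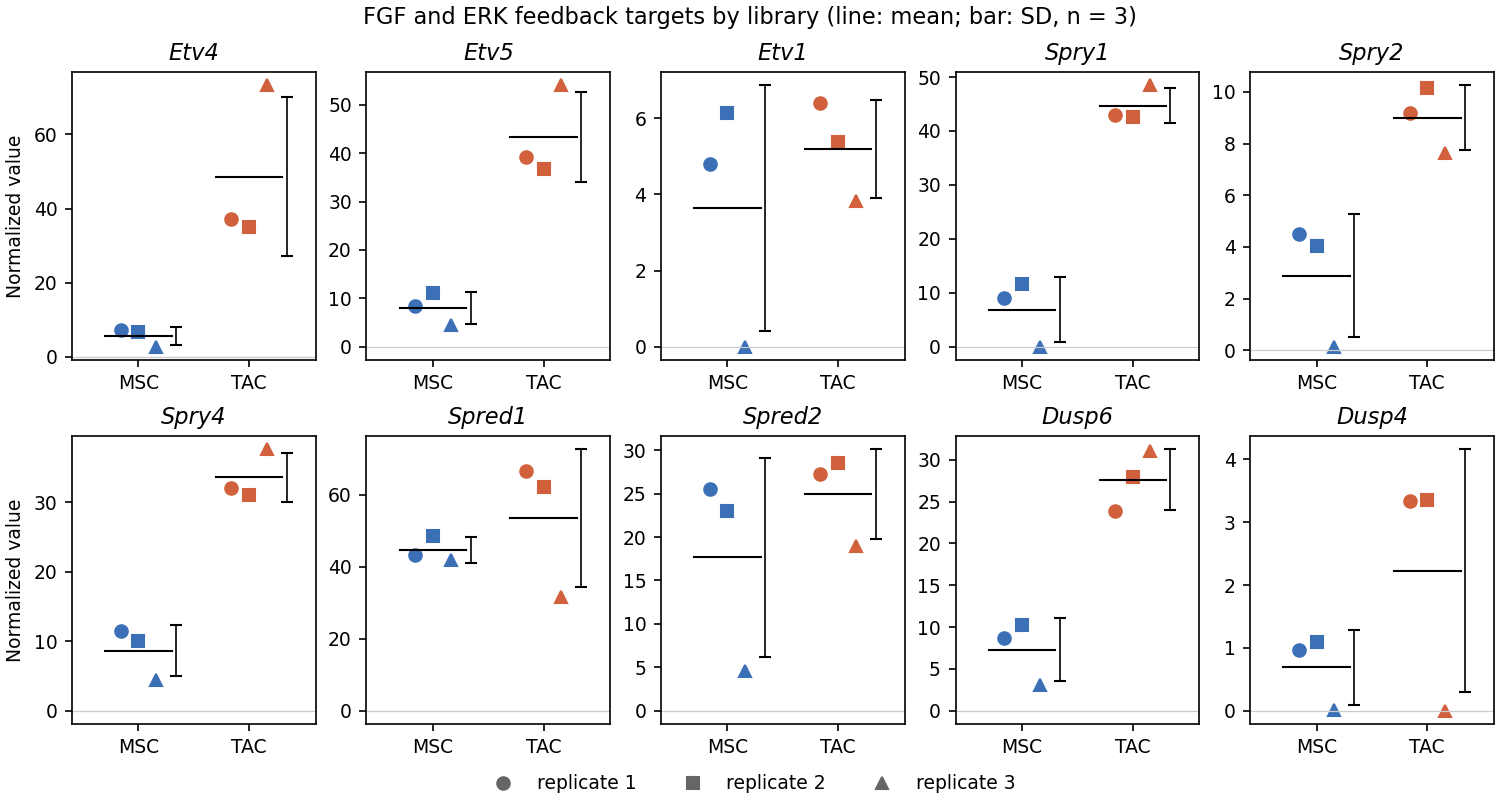
Normalized value (vertical axis, linear, own scale per gene) of the 10 members in each MSC (blue) and TAC (orange) library. Marker shapes give the replicate number, lines the mean and bars the SD of 3 libraries. The groups do not overlap for Etv4, Etv5, Spry1, Spry2, Spry4 and Dusp6, and replicate 3 of MSCs is the lowest MSC library for every member.

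Etv4 and Etv5 encode closely related ETS activators that serve as nuclear effectors of FGF signaling. Etv4 (chr11:101769742-101785371, minus strand, mm10) had values of 7.22, 6.78 and 2.74 in MSC replicates 1, 2 and 3 and of 37.2, 35.1 and 73.2 in TAC replicates 1, 2 and 3. The lowest TAC library was thus far above the highest MSC library, and TAC replicate 3 stood above the other two TAC libraries. The mean was 5.58 ± 2.47 in MSCs and 48.5 ± 21.4 in TACs (SD, n = 3 each). The log2 fold change was 2.91 (SE 0.47, 95% interval 1.81 to 4.02, limma adjusted p 0.0709). It was 2.22 within replicates 1 and 2 and 4.31 within replicate 3.

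Etv5 (chr16:22381309-22439719, minus strand) followed the same order of libraries as Etv4 in the TAC group. Its values were 8.42, 11.1 and 4.41 in the MSC libraries and 39.3, 36.8 and 54.1 in the TAC libraries. The groups were again well apart, with means of 7.98 ± 3.38 and 43.4 ± 9.35 (SD, n = 3 each). Its log2 fold change was 2.36 (SE 0.40, 95% interval 1.42 to 3.30, limma adjusted p 0.0768), with 1.87 within replicates 1 and 2 and 3.35 within replicate 3. The ratio of the Etv4 value to the Etv5 value was 0.858, 0.609 and 0.622 in the MSC libraries and 0.948, 0.955 and 1.35 in the TAC libraries, so Etv4 differed by the larger factor of the pair.

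Etv1 (chr12:38779380-38870484, plus strand), the other gene of this ETS group, did not share the pattern. Its values were 4.79, 6.13 and 0.00666 in the MSC libraries, the last of which is the value of 0 reads, and 6.39, 5.37 and 3.84 in the TAC libraries. The groups overlapped, and the log2 fold change of 0.82 (SE 0.82, 95% interval -1.10 to 2.74, limma adjusted p 0.758) came almost wholly from MSC replicate 3. It was 0.09 within replicates 1 and 2, 2.26 within replicate 3 and -0.07 when MSC replicate 3 was left out.

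The Sprouty genes encode membrane-associated inhibitors that ERK signaling induces and that act upstream of ERK. Spry1 (chr3:37639947-37644598, plus strand) had values of 8.98, 11.6 and 0.0133 in the MSC libraries and of 43.0, 42.7 and 48.5 in the TAC libraries. The 3 TAC libraries lay close together, while MSC replicate 3 held a single read of the gene against 336 and 401 in the other two MSC libraries. The log2 fold change was 3.18 (SE 0.92, 95% interval 1.03 to 5.33, limma adjusted p 0.228), the largest of the 10 members over all 6 libraries. It was 1.96 within replicates 1 and 2 and 5.61 within replicate 3, and without MSC replicate 3 it was 2.02 with an adjusted p of 0.0353 in limma. Over all alternatives its limma adjusted p ran from 6.72e-06 to 0.648. The first place of Spry1 rests on MSC replicate 3. Etv4 had the larger log2 fold change of the 2 genes within replicates 1 and 2 (2.22) and without MSC replicate 3 (2.55). Spry1 overlaps a predicted gene on the opposite strand, Gm42922, and the use of strand in counting was not given in the sources used here.

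Spry4 (chr18:38586268-38601268, minus strand) gave 11.5, 10.03 and 4.44 in the MSC libraries and 32.03, 31.1 and 37.6 in the TAC libraries. Every TAC library was above every MSC library, with means of 33.6 ± 3.52 in TACs and 8.64 ± 3.71 in MSCs (SD, n = 3 each). TACs exceeded MSCs by a log2 fold change of 1.93 (SE 0.41, 95% interval 0.97 to 2.88, limma adjusted p 0.126), with 1.47 within replicates 1 and 2 and 2.83 within replicate 3. Spry4 spans 2 annotated small RNA genes on the opposite strand.

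Spry2 (chr14:105891949-105896819, minus strand) was the lowest of the Sprouty genes in TACs and the least separated. Its values were 4.504, 4.03 and 0.146 in the MSC libraries and 9.20, 10.1 and 7.65 in the TAC libraries. MSC replicate 3, with 21 reads, was again far below the other MSC libraries, and TAC replicate 3 was the lowest TAC library, unlike for Spry1 and Spry4. Its log2 fold change was 1.65 (SE 0.71, 95% interval -0.01 to 3.31, limma adjusted p 0.423), with 1.02 within replicates 1 and 2 and 2.92 within replicate 3.

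Dusp6 encodes a cytoplasmic phosphatase that acts selectively on ERK, and it is among the standard readouts of FGF signaling. Dusp6 (chr10:99263231-99267489, plus strand) had values of 8.63, 10.2 and 3.04 in the MSC libraries and of 23.9, 28.0 and 31.1 in the TAC libraries. The groups were apart, with means of 7.29 ± 3.76 and 27.6 ± 3.62 (SD, n = 3 each). The log2 fold change was 1.91 (SE 0.47, 95% interval 0.81 to 3.01, limma adjusted p 0.170), with 1.37 within replicates 1 and 2 and 2.99 within replicate 3. Dusp4 (chr8:34807297-34819894, plus strand) encodes a nuclear phosphatase of ERK and of stress kinases. It was low in every library, at 0.959, 1.10 and 0.00666 in MSCs and 3.33, 3.36 and 0.00379 in TACs. Both libraries of replicate 3 held 0 reads of it, so its log2 fold change of 0.73 (SE 0.74, 95% interval -0.999 to 2.46, limma adjusted p 0.762) came from replicates 1 and 2, where it was 1.10.

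The Spred genes encode inhibitors that act at the level of Ras and Raf, and their groups overlapped. Spred1 (chr2:117121374-117182279, plus strand) was 43.3, 48.6 and 41.9 in the MSC libraries and 66.7, 62.2 and 31.4 in the TAC libraries. TAC replicates 1 and 2 were above all MSC libraries and TAC replicate 3 was below them, so this gene had no common direction. Its log2 fold change was 0.19 (SE 0.35, 95% interval -0.63 to 1.00, limma adjusted p 0.897), with 0.48 within replicates 1 and 2 and -0.40 within replicate 3. Spred2 (chr11:19924375-20024026, plus strand) was 25.5, 23.0 and 4.51 in MSCs and 27.3, 28.5 and 19.0 in TACs. Only MSC replicate 3 lay well apart, and the log2 fold change of 0.75 (SE 0.63, 95% interval -0.72 to 2.22, limma adjusted p 0.703) was 0.20 within replicates 1 and 2 and 1.86 within replicate 3.

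**Figure D2:**
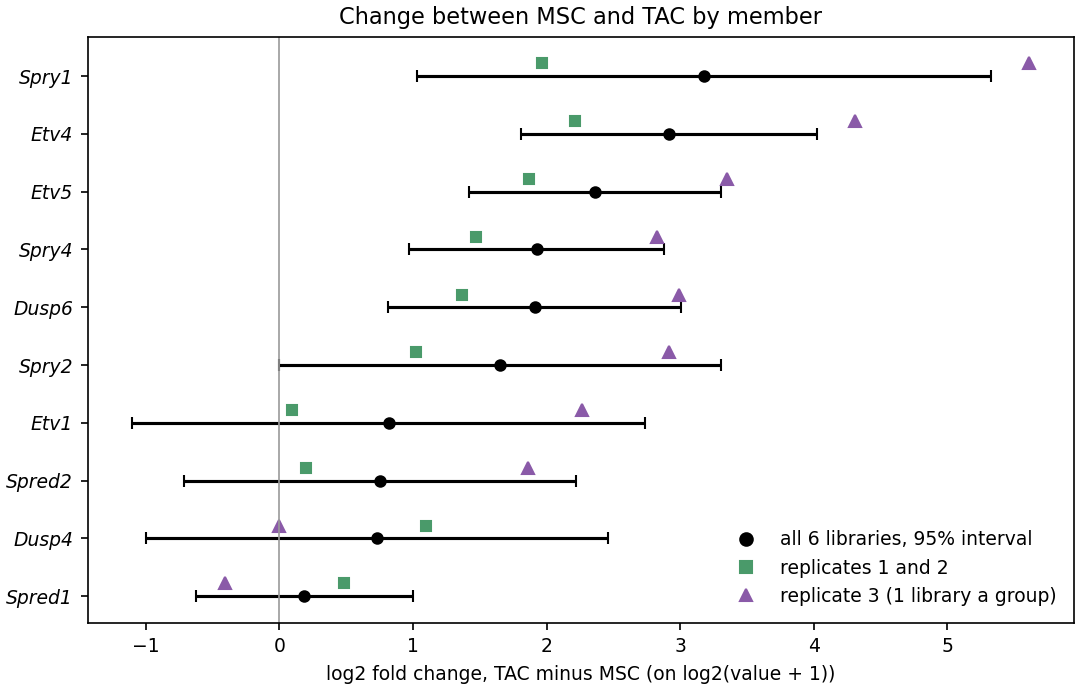
Log2 fold change, TAC minus MSC, of each member on the log2(value + 1) scale. Black points and bars give the limma estimate and 95% interval over all 6 libraries, green squares replicates 1 and 2, and purple triangles the single pair of replicate 3. The intervals of 5 members, Spry1, Etv4, Etv5, Spry4 and Dusp6, lie above 0, and replicate 3 gives the larger difference in 8 of the 10 members.

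The size of the difference was not the same in the library pair of replicate 3 as in replicates 1 and 2. The test of the group difference in replicate 3 against that in replicates 1 and 2 passed the adjusted threshold in limma for 10 of 10 members, but it did so for 57.2% of all genes. The difference was larger in replicate 3 for 8 members, by 1.35 for Spry4 to 3.65 for Spry1 on the log2 scale, and smaller for Spred1 and Dusp4, by -0.89 and -1.10. The error in this test comes from replicates 1 and 2, since replicate 3 has 1 library per group, so the spread of such libraries is not measured and the test compares this pair of libraries only. The direction was the same in both library sets for 8 members, higher in TACs each time, as it was for 30.1% of all genes.

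Ratios between members within a library do not depend on the scaling of that library. The value of Spry4 divided by that of Spred1 was 0.265, 0.206 and 0.106 in the MSC libraries and 0.480, 0.500 and 1.20 in the TAC libraries. The same ratio for Dusp6 was 0.200, 0.210 and 0.0725 in MSCs and 0.358, 0.450 and 0.989 in TACs. For Etv5 it was 0.195, 0.229 and 0.105 against 0.589, 0.591 and 1.72. In each case the lowest TAC library was above the highest MSC library. These 3 members were taken from those whose own groups do not overlap, and Spred1 differed little, with a log2 fold change of 0.19. The separation of the ratios was therefore largely set by that choice and is no independent support. The share of all genes with such ratios was not computed.

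Levels of different genes were compared only as the value per kb of exon, taken from the GENCODE M21 gene models. In TACs the mean order of this level was Etv4 at 15.6 ± 6.91, Spry1 at 15.4 ± 1.12, Etv5 at 10.6 ± 2.28, Dusp6 at 8.83 ± 1.16, Spred1 at 7.88 ± 2.83, Spry4 at 7.06 ± 0.739, Spred2 at 5.396 ± 1.12 and Spry2 at 4.31 ± 0.603 (SD, n = 3). Neighbours in this order differed by less than the larger of their SDs, except for Spry1 over Etv5 and Spry4 over Spred2, while Dusp4 at 0.814 ± 0.704 and Etv1 at 0.391 ± 0.0966 were far lower. In MSCs Spred1 led at 6.57 ± 0.519 and was first in each of the 3 libraries, followed by Spred2 at 3.83 ± 2.49. The next 6 in MSCs, from Spry1 at 2.37 ± 2.10 to Spry2 at 1.39 ± 1.15, differed from each other by less than the larger of their SDs, and Etv1 and Dusp4 were again lowest, at 0.274 ± 0.242 and 0.251 ± 0.217. Spred1 had rank 3 in TAC replicates 1 and 2 and rank 6 in TAC replicate 3. Etv4 and Spry1 took the first 2 places in every TAC library. The exon length is that of all annotated isoforms joined, which lowers the level of genes with long rare exons such as Etv1.

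**Figure D3:**
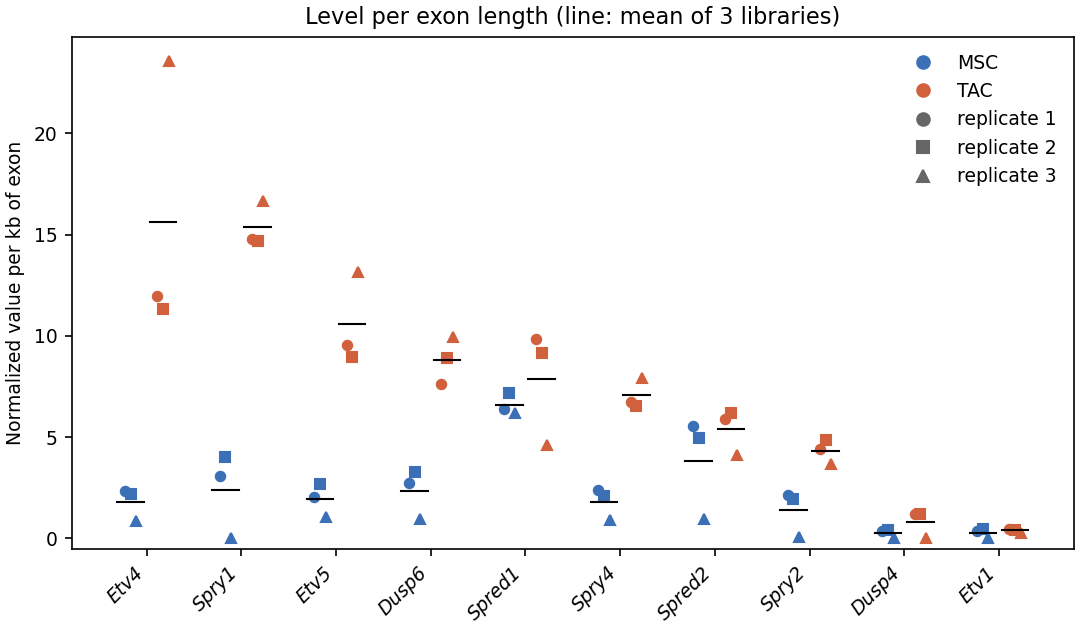
Normalized value per kb of exon (linear axis) for the 10 members in MSC (blue) and TAC (orange) libraries, ordered by the TAC mean, with marker shapes for replicates and lines for means. Spred1 is the highest member in all 3 MSC libraries, and Etv4 and Spry1 are the highest in all 3 TAC libraries.

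Other known readouts of the pathway did not move as one with the members. Of 15 such genes, 14 were tested and 0 passed the adjusted threshold in limma (0.422% of all genes). At an unadjusted p under 0.05, 2 were higher (5.42% of all genes) and 2 were lower in TACs (6.43%). Their groups did not overlap for 3 genes that were higher (12.3% of all genes) and 4 that were lower in TACs (12.2%), and their median log2 fold change was 0.05, against 1.78 for the members. Il17rd, which encodes the FGF inhibitor SEF, had the largest difference toward TACs. Its values were 23.6, 22.8 and 13.7 in MSCs and 65.1, 63.8 and 37.3 in TACs, with a log2 fold change of 1.42 (SE 0.36, limma adjusted p 0.179), 1.44 within replicates 1 and 2 and 1.38 within replicate 3. With the replicate number as a block, its adjusted p in limma was 0.0477. With replicates 1 and 2 averaged into 1 sample per group and no block, 0 of these readouts passed, Il17rd included. In the opposite direction, Errfi1, an inhibitor of EGF receptors that growth factor signaling induces, was 24.0, 29.7 and 77.4 in MSCs and 7.01, 5.95 and 8.20 in TACs, a log2 fold change of -2.29 (SE 0.48, limma adjusted p 0.126), -1.89 within replicates 1 and 2 and -3.09 within replicate 3. A further list of 5 phosphatase genes, Dusp1, Dusp2, Dusp8, Dusp10 and Dusp16, is called the stress kinase phosphatases here. Their median was -0.60, and 0 passed in limma, with 1 lower at an unadjusted p under 0.05 (6.43% of all genes). Of these, Dusp1 was 12.8, 13.6 and 41.8 in MSCs and 3.42, 3.67 and 4.98 in TACs, a log2 fold change of -2.04 (SE 0.55, limma adjusted p 0.191), -1.64 within replicates 1 and 2 and -2.84 within replicate 3. Dusp1 and Dusp6 thus lay on opposite sides in all libraries, each with groups that did not overlap.

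**Figure D4:**
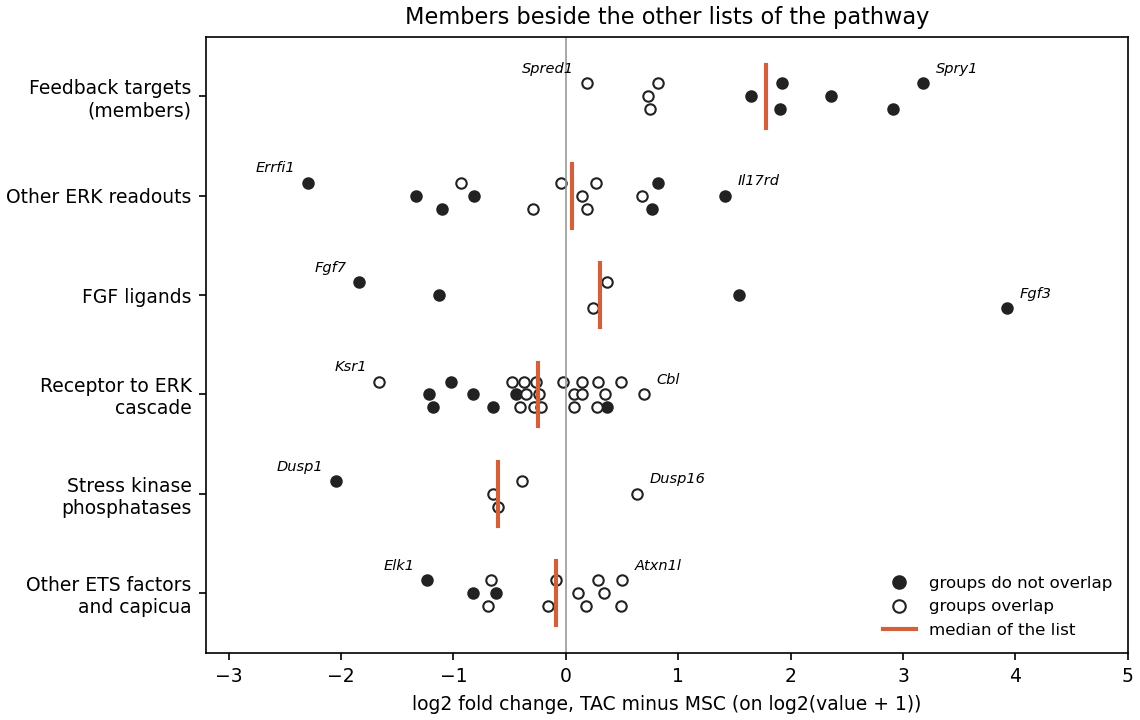
Log2 fold change, TAC minus MSC on the log2(value + 1) scale, of each tested gene in 6 lists of the pathway. Filled points mark genes whose MSC and TAC libraries do not overlap, and orange bars the median of each list. The members have a median of 1.78, and the medians of the other lists lie between -0.60 and 0.30.

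The components that carry the signal from receptor to ERK did not share the direction of the members. All 26 were tested and 0 passed in limma, with 3 lower (6.43% of all genes) and 0 higher in TACs at an unadjusted p under 0.05. Without overlap, 1 was higher (12.3% of all genes) and 6 were lower in TACs (12.2%), and the median log2 fold change was -0.25. Fgfr1, the main FGF receptor of mesenchyme, was 331, 333 and 235 in MSCs and 321, 320 and 339 in TACs, a difference of 0.14 (SE 0.32), -0.05 within replicates 1 and 2 and 0.52 within replicate 3. Fgfr2 had the largest difference toward MSCs among those without overlap, at 107, 107 and 40.6 against 34.3, 37.8 and 27.1, a log2 fold change of -1.22 (SE 0.43, limma adjusted p 0.322), -1.55 within replicates 1 and 2 and -0.57 within replicate 3. Hras was the gene without overlap toward TACs, with 0.36 (SE 0.33), 0.34 within replicates 1 and 2 and 0.42 within replicate 3. Mapk3, which encodes an ERK kinase, overlapped between the groups, with a difference of -0.41 (SE 0.59), -0.30 within replicates 1 and 2 and -0.62 within replicate 3.

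Of 10 FGF ligand genes that the list named, 9 were in the table, 6 were tested and 0 passed in limma, with 2 higher (5.42% of all genes) and 2 lower (6.43%) in TACs at an unadjusted p under 0.05. Fgf3, a ligand of incisor mesenchyme, had the largest difference toward TACs, larger than that of any member. Its values were 7.70, 5.10 and 0.00666 (0 reads) in MSCs and 43.3, 45.6 and 89.5 in TACs, with a log2 fold change of 3.92 (SE 0.82, limma adjusted p 0.123), 2.64 within replicates 1 and 2 and 6.49 within replicate 3. Fgf7 had the largest difference toward MSCs, at 1.47, 1.45 and 10.02 against 0.131, 0.288 and 0.00379 (0 reads), a log2 fold change of -1.84 (SE 0.71, limma adjusted p 0.371), -1.03 within replicates 1 and 2 and -3.46 within replicate 3. Fgf10, the mesenchymal ligand known to act on incisor epithelium, overlapped between the groups, with 32.5, 28.3 and 17.6 in MSCs and 33.7, 30.7 and 26.3 in TACs, a difference of 0.24 (SE 0.33), 0.08 within replicates 1 and 2 and 0.55 within replicate 3. Of 13 other ETS factors and genes of the capicua complex, 0 passed in limma, also at an unadjusted p under 0.05, and 3 were lower in TACs without overlap (12.2% of all genes), with a median of -0.09. In these lists voom also called 0 genes. Elk1 had the largest difference among the 3 ETS and capicua genes without overlap, at -1.23 (SE 0.59, limma adjusted p 0.472), -0.29 within replicates 1 and 2 and -3.12 within replicate 3. Cic, the gene of capicua, overlapped at -0.66 (SE 0.42, limma adjusted p 0.5996), -0.81 within replicates 1 and 2 and -0.37 within replicate 3.

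Some markers of epithelium and of division also lay apart between the groups. The summed value of 7 dental epithelium markers was 31.1 to 33.8 in MSCs and 58.8 to 93.2 in TACs, and 4 of the 7, Krt14, Krt5, Epcam and Cdh1, were higher in TACs without overlap (12.3% of all genes). MSC replicate 3 held 0 reads of Epcam, Cdh1, Trp63 and Shh. Dental epithelium is known to express several members too, and the part of these markers in the members' values was not tested. The summed value of 6 proliferation markers was 86.2 to 195 in MSCs and 279 to 944 in TACs. Of the 6, 5 were higher in TACs without overlap (12.3% of all genes). Cdk1 was past the adjusted threshold, higher in TACs (0.0390% of all genes), at 2.62 (SE 0.35, limma adjusted p 0.0390). Its difference came to 2.58 within replicates 1 and 2 and 2.70 within replicate 3. With the replicate block Mki67 and Birc5 passed too, higher in TACs (0.604% of all genes), at limma adjusted p of 0.0442 and 0.0489. The summed value of all 10 members was 124, 133 and 61.3 in MSCs and 288, 283 and 306 in TACs. Over the 4 members whose groups overlapped singly, the sum was 74.5, 78.8 and 46.5 in MSCs and 103.7, 99.4 and 54.3 in TACs, which overlaps.

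Marker lists of other cells were examined in the same way. Without overlap, 4 of 7 endothelial markers, 2 of 6 macrophage markers and 2 of 4 Schwann cell markers were lower in TACs (12.2% of all genes), and 0 genes of these 3 lists passed the adjusted threshold in limma. At an unadjusted p under 0.05, 4, 1 and 1 genes of these lists were lower in TACs (6.43% of all genes). The summed values of the macrophage and Schwann cell markers overlapped between the groups. Those of the endothelial markers did not, at 187, 188 and 270 in MSCs and 114, 111 and 78.2 in TACs, nor those of the smooth muscle markers, at 320, 313 and 445 in MSCs and 11.96, 12.4 and 2.66 in TACs. With the replicate block the endothelial gene Cldn5 passed, at a limma adjusted p of 0.0491. Of the 4 smooth muscle markers tested, all 4 were lower in TACs without overlap (12.2% of all genes) and 3 passed the adjusted threshold, lower in TACs (0.383% of all genes): Acta2 at -5.36, Myh11 at -5.56 and Tagln at -3.60 on the log2 scale, with limma adjusted p of 0.0455, 0.0391 and 0.0337. With the block, Acta2 no longer passed, at a limma adjusted p of 0.0701. Without any one of replicates 1 and 2 of either group, 0 genes passed, so these 3 calls and that of Cdk1 ended. The summed value of 5 odontoblast markers was 5203, 5060 and 763 in MSCs and 4709, 4677 and 4432 in TACs, a sum carried mainly by Dspp at 4909, 4763 and 476 in MSCs and 4410, 4370 and 3095 in TACs. MSC replicate 3, where every member was lowest among the MSC libraries, was also the lowest of these for Dspp, Dmp1, Phex and Ibsp and the highest for Bglap, at 181, 172 and 279. The part of these cells in the members' values was not tested.

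**Figure D5:**
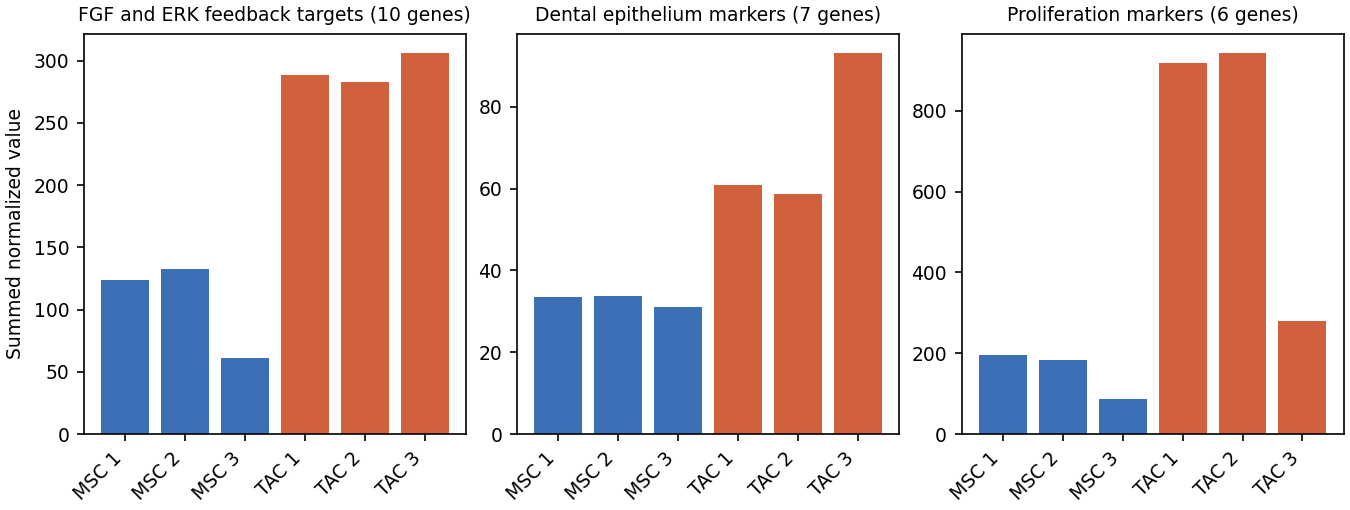
Summed normalized value per library (bars from 0, own scale per panel) of the 10 members, of 7 dental epithelium markers and of 6 proliferation markers, with MSC libraries in blue and TAC libraries in orange. All 3 sums are higher in every TAC library than in any MSC library. MSC replicate 3 is the lowest library in each panel.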

How the data were processed

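RNA from 3 MSC and 3 TAC samples was sequenced as single-end reads. The submitters' processing notes and the methods name CASAVA 1.8.2, TopHat2 2.0.8, Partek and build mm10. How reads were counted, and whether by strand, is not given in the sources used here. The methods name RPKM, but in each deposited column most low values (72.8% to 93.3% within 0.02, below 300 times the lowest) were whole multiples of the lowest value, whatever the gene's length. Thus the deposited unit was taken to be a signal, made by the authors by adding 1 read and scaling each library. All 6 columns were used, and 0 were left unmapped. Reads were estimated by dividing each column by its lowest entry and subtracting 1, and their totals set the depth. They are partly fractional, so no count model is the main test.

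Groups and replicate numbers came from the sample titles. Genes with a mean of at least 1 (15391) were fitted with limma 3.58.1 in R 4.3.3 on log2(value + 1) with a variance trend, TAC minus MSC, two-sided, with Benjamini-Hochberg adjustment over all genes and a threshold of 0.05. Fold changes of low genes are understated by the pseudocount of 1. The fit was tested on simulated data. Replicates 1 and 2 differed by more than counting error (chi-square per gene 10.3 in MSCs and 8.08 in TACs, against 1 for counting error alone), so they were not treated as repeats of 1 library. This does not show that they came from separate animals, for which the methods' 3 mice per group is the source. Deviations from the group mean correlated by 0.477, 0.465 and 0.517 between same-numbered samples, all over 0.1, so the number was also used as a block. The pairing comes from the labels' numbers, and the methods also speak of pairs of samples. It reflects mainly the split of replicate 3 from the others, since MSC replicate 1 with TAC replicate 2 gave 0.462. The block called 229 genes in place of 65 and 0 members in place of 0. No source says what a pair shared.

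The members and lists were chosen with earlier results of these data known. The text names all members, Fgfr1, Fgf10, Mapk3, Cic, genes past the adjusted threshold and, per list, the largest difference in each direction among genes whose groups did not overlap. Marker genes are named where they touch a result. Some listed genes are not reported here by name. Promoter sequences are from RefSeq on GRCm38.p6. Alternatives are pseudocounts, filters, scalings, variance models, the block, the library set and each sample left out.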

Additional observations from a re-analysis of the deposited data

How the results depend on the processing

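The count of members past the adjusted threshold in limma was 0 and stayed 0 in 14 of the 18 alternatives, the replicate block among them. It was 2 with quantile normalization, 4 with the library set as a batch term, 8 with replicates 1 and 2 only, and ran from 0 to 4 with each sample left out, the 4 without MSC replicate 3. The 4 with the batch term were Spry4, Dusp6, Etv4 and Etv5, and without MSC replicate 3 they were Spry1, Spry4, Etv4 and Etv5. With replicates 1 and 2 averaged into 1 sample per group and no batch term, 0 members passed. The count over all genes was 65. It was 38 with a pseudocount of 0.1, 114 with quantile normalization, 29 without the variance trend, 229 with the replicate block, 1814 with the library set term, 6796 with replicates 1 and 2 only, 10 with replicates 1 and 2 averaged and 23 with voom on estimated reads. With each sample left out it ran from 0 to 292, the latter without MSC replicate 3. It was 36 without TAC replicate 3 and 0 without any one of replicates 1 and 2.

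The other readouts had 0 calls, against 1 with the block, 4 with the library set term, 10 with replicates 1 and 2 only and 0 to 1 with a sample left out. The cascade had 0, against 4, 10 and 0 to 1 under the last 3 of these, the ligands 0, against 2, 5 and 0 to 1, and the stress kinase phosphatases 0, against 1 and 2 under the first 2 of those. The other ETS and capicua genes had 0, against 1 with the library set term and 6 with replicates 1 and 2 only. The block changed no call of a member, and beside that of Il17rd it changed those of 4 marker genes, Acta2, Mki67, Birc5 and Cldn5. Over the alternatives, the 6 separated members had log2 fold changes of 1.96 to 8.75 for Spry1, 0.92 to 4.44 for Spry2 and 1.47 to 2.52 for Spry4. For Dusp6, Etv4 and Etv5 they were 1.37 to 2.76, 2.22 to 3.78 and 1.87 to 2.96. These 6 were singled out because their groups do not overlap. Leaving out samples, averaging, blocks, filters and pseudocounts therefore could not turn their direction, and only changes of scaling and voom could have. Their constant direction is thus no added support. The direction turned for Dusp4 with voom (-0.84), for Spred1 without TAC replicate 1 and for Etv1 without MSC replicate 3. With each sample left out in turn, Spred1 ran from -0.0074 to 0.52 and Etv1 from -0.073 to 1.34. Dusp4, Etv1 and Spry2 had a mean under 10 and were not in the fit with that minimum. MSC replicate 3 held 0 or 1 read of Etv1, Dusp4 and Spry1, so differences that include it rest on 0 or 1 read there. The cause of the other changes in counts was not tested.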
